A study of Mus musculus with 8 samples.

Results

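The 10 genes described here encode the repressor-forming Gli transcription factors and the proteins that carry the Hedgehog signal to them at the primary cilium: Gli2, Gli3, Sufu, Smo, Kif7, Gpr161, Spop, Stk36, Evc and Evc2. They were chosen by symbol, and all 10 were found among the 37991 gene identifiers of the files. They were measured by RNA sequencing in fibro/adipogenic progenitors (FAPs), mesenchymal cells of skeletal muscle that can form fibroblasts or adipocytes. The FAP-ctrl group holds 5 libraries of cells from wild type muscle, and the FAP-no cilia group holds 3 libraries of cells in which a floxed allele of Ift88, a subunit of the intraflagellar transport machinery that builds the cilium, was conditionally deleted. Both groups are of mixed background, and in both the FAPs were isolated 3 days after the tibialis anterior muscle was injured with glycerol. The driver of the deletion, the age of the mice and whether a library came from 1 animal or a pool are not given in the sources used, so p-values measure the spread between these libraries, which may be technical.

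In vertebrates the cilium is where Hedgehog signalling is read out. Without ligand, Gpr161 at the cilium keeps protein kinase A active, Sufu holds the full-length Gli proteins, and Gli3, and less so Gli2, is cut to a short form that represses target genes. With ligand, Smo enters the cilium, the Evc and Evc2 proteins at its base relay the signal, and Kif7 organises the ciliary tip where Sufu lets go of the Gli proteins. Spop is the adaptor of a ubiquitin ligase that degrades full-length Gli proteins, and Stk36 is the relative of the fly kinase Fused. Cutting and release of Gli proteins act on protein and are not seen in RNA, so the values below are transcript levels only.

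The libraries held 15.3 M to 43.9 M gene reads. Ift88 was at 457 to 594 normalized reads in FAP-ctrl against 195 to 322 in FAP-no cilia, lower in 3 of 3 libraries; this difference missed the limma-trend threshold (log2 difference -1.14 ± 0.17 SE, adjusted p = 0.0895). It passed with DESeq2 (-1.11, adjusted p = 6.6e-06) and, by limma-trend, without FAP-no cilia 3 (-1.37, adjusted p = 0.0214), the library with the most Ift88 of its group. The share of cells that kept Ift88 was not measured. All 3 FAP-no cilia libraries and 2 of the 5 FAP-ctrl libraries were read as male from Xist and Y-linked transcripts, so genotype is partly confounded with sex and values within males are given where they matter. Within males the log2 difference of Ift88 was -0.98 (limma-trend adjusted p = 0.394). The FAP markers were abundant throughout. The 6 of them summed to 243633 to 316938 normalized reads in FAP-ctrl and to 274095 to 287529 in FAP-no cilia, and their sums overlapped.

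None of the 10 genes passed the all-gene test between the groups. A total of 14768 genes, among them all 10, reached a normalized read count of at least 10 in at least 3 libraries. They were compared by limma-trend on log2(value + 1), with Benjamini-Hochberg adjustment over all of them and a threshold of 0.05. Of these 10 genes 0 passed, against 0.00677% of all genes tested (1 gene), so this test called almost nothing anywhere. DESeq2 on the reads recovered from the normalized values called 0 of the 10 as well, against 1.22% of all genes, and so did edgeR (0.00677%) and limma-voom. Without adjustment, 1 of the 10, Stk36, had a limma-trend p under 0.05, against 10.8% of all genes. Of the 10 differences 6 were above 0 and 4 below, with a median of 0.029, against 51.5% above 0, 48.5% below and a median of 0.0077 over all genes. Differences are FAP-no cilia minus FAP-ctrl on the log2(value + 1) scale, and intervals are the 95% intervals of the limma fit.

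**Figure D1:**
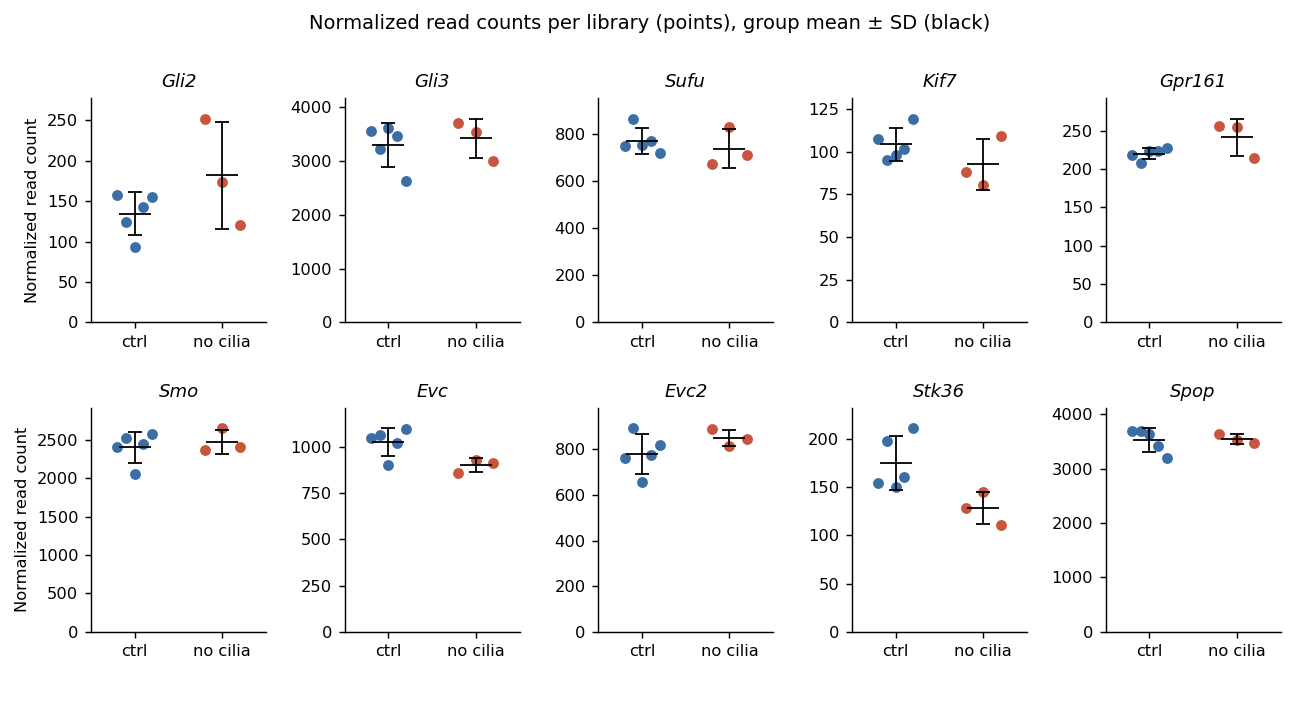
Normalized read counts (vertical axes, each from 0) of the 10 genes in the 5 FAP-ctrl libraries (blue) and the 3 FAP-no cilia libraries (red), with group mean ± SD in black. Stk36 is the only one of the 10 whose groups do not overlap, with 150 to 211 in FAP-ctrl against 111 to 145 in FAP-no cilia.

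The Gli factors come first, as the end point of the pathway. Gli3 (ENSMUSG00000021318, chromosome 13, 15463235 to 15730026, GRCm38) encodes the main Gli repressor of limb mesenchyme. It stood at 3555, 3222, 3621, 3455 and 2630 normalized reads in FAP-ctrl 1 to 5 against 3711, 3538 and 3005 in FAP-no cilia 1 to 3. FAP-ctrl 5 was the lowest of all, and the ranges of the groups overlapped for most of their length. The means of Gli3 were 3297 ± 402 (SD, n = 5) and 3418 ± 368 (SD, n = 3), and its log2 difference was 0.056 with an interval of -0.21 to 0.32 (limma-trend adjusted p = 0.901). The sign of this small difference turned without FAP-ctrl 5 (-0.024) and without FAP-no cilia 1 (-0.0067). GENCODE places an antisense transcript, Gm6556, over 188 exonic bases of Gli3; it is not analysed here.

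Gli2 (ENSMUSG00000048402, chromosome 1, 118834132 to 119053619), which encodes the main activator of the pathway in embryonic tissues, was far lower than Gli3 in each library. It stood at 157, 124, 93.2, 143 and 155 normalized reads in FAP-ctrl against 252, 174 and 121 in FAP-no cilia. FAP-no cilia 1 was the highest library, FAP-ctrl 3 the lowest, and 2 of the 3 FAP-no cilia values lay above the FAP-ctrl range while the third lay inside it. The log2 difference of 0.40 was the highest of the 10, but its interval ran from -0.17 to 0.96 (limma-trend adjusted p = 0.603), and the difference was 0.13 without FAP-no cilia 1 and 0.66 without FAP-no cilia 3 (limma-trend adjusted p = 0.259). Gli2 also varied most within a group: its coefficient of variation was 36.3% in FAP-no cilia and 19.7% in FAP-ctrl, where counting reads alone would give 8.58% and 8.19%.

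Of the reads that fell on either Gli2 or Gli3, Gli2 took 4.24, 3.71, 2.51, 3.98 and 5.56% in FAP-ctrl against 6.37, 4.68 and 3.87% in FAP-no cilia. The Wilson 95% intervals, which cover counting error only, were 2.07 to 3.04% in the lowest library (FAP-ctrl 3), 4.80 to 6.43% in the highest of its group (FAP-ctrl 5) and 5.56 to 7.27% in the highest of all (FAP-no cilia 1). Libraries of FAP-ctrl therefore differed among themselves by more than counting error, while the groups overlapped. Gli3 is the longer transcript, so their levels are compared per kb of union exon length (9.59 kb for Gli3 and 6.87 kb for Gli2 in GENCODE M21). Per kb, Gli3 was 16.2, 18.6, 27.8, 17.3 and 12.2 times the level of Gli2 in FAP-ctrl against 10.5, 14.6 and 17.8 times in FAP-no cilia. Gli3 thus exceeded Gli2 at least 10.5-fold in all 8 libraries of both groups.

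Sufu (ENSMUSG00000025231, chromosome 19, 46396896 to 46488804) encodes the protein that binds all Gli factors and is a major inhibitor of the pathway in mammals. It stood at 752, 867, 756, 772 and 720 normalized reads in FAP-ctrl against 675, 833 and 711 in FAP-no cilia. In all, 2 of the 3 FAP-no cilia libraries lay just under the lowest FAP-ctrl library and the other lay near the top. The log2 difference was -0.067, with an interval of -0.29 to 0.15 (limma-trend adjusted p = 0.847). It was -0.0039 without FAP-no cilia 1, -0.025 without FAP-ctrl 2, -0.16 without FAP-no cilia 2 and -0.13 within males.

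The ratios between these 3 genes are free of the size factor of a library. The ratio of Gli2 to Sufu, in normalized reads, was 0.209, 0.143, 0.123, 0.185 and 0.215 in FAP-ctrl against 0.374, 0.209 and 0.170 in FAP-no cilia. FAP-no cilia 1 stood apart with the highest ratio and the other 2 lay inside the FAP-ctrl range. The ratio of Gli3 to Sufu was 4.73, 3.72, 4.79, 4.47 and 3.65 in FAP-ctrl against 5.50, 4.25 and 4.23 in FAP-no cilia, again with FAP-no cilia 1 the only library outside the FAP-ctrl range. For Gli2 to Gli3 the ratio was 0.0418 ± 0.0119 (SD, n = 5) in FAP-ctrl against 0.0524 ± 0.0142 (SD, n = 3) in FAP-no cilia. On the log2 scale the ratios were higher in FAP-no cilia by 0.34 for Gli2 to Gli3, 0.46 for Gli2 to Sufu and 0.12 for Gli3 to Sufu. In an exact two-sided permutation test over the 56 assignments of the libraries, which cannot give a p below 0.0357, the p-values were 0.286, 0.321 and 0.393, each 0.393 after adjustment over 4 ratios. Without FAP-no cilia 1 the differences of Gli2 to Gli3, Gli2 to Sufu and Gli3 to Sufu were 0.14, 0.14 and -0.0028. Without FAP-no cilia 3 those of Gli2 to Gli3 and Gli2 to Sufu were 0.51 and 0.70, and without FAP-ctrl 3 that of Gli2 to Gli3 was 0.18. Per kb, Gli3 was at 3.43 ± 0.441 times the level of Sufu in FAP-ctrl against 3.73 ± 0.585 times in FAP-no cilia, and Gli2 at 0.196 ± 0.0453 and 0.281 ± 0.121 times (SD).

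**Figure D2:**
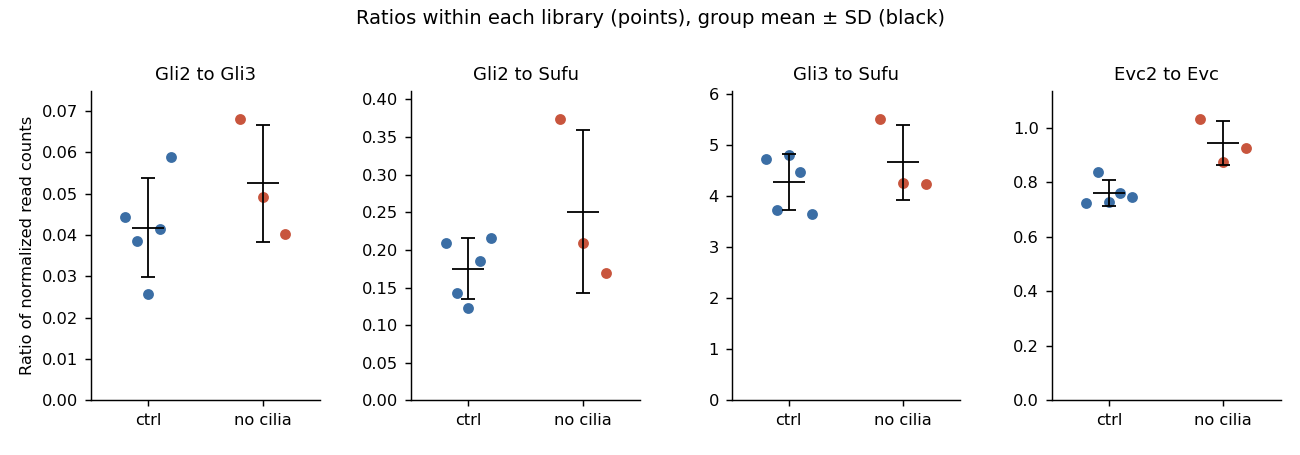
Ratios of normalized read counts within each library (vertical axes, each from 0) for Gli2 to Gli3, Gli2 to Sufu, Gli3 to Sufu and Evc2 to Evc in FAP-ctrl (blue, n = 5) and FAP-no cilia (red, n = 3), with group mean ± SD in black. The first 3 ratios overlap between the groups, and Evc2 to Evc is at 0.724 to 0.840 in FAP-ctrl against 0.875 to 1.03 in FAP-no cilia.

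Kif7 and Gpr161 are, with Sufu, negative regulators of the pathway. Gpr161 (ENSMUSG00000040836, chromosome 1, 165295789 to 165326745), an orphan receptor coupled to cyclic AMP production, stood at 218, 208, 224, 223 and 227 normalized reads in FAP-ctrl against 256, 254 and 214 in FAP-no cilia. Its FAP-ctrl values were the most even of the 10 genes, with a coefficient of variation of 3.37%, below the 6.30% that counting reads would give on average. Although 2 of the 3 FAP-no cilia libraries were above the FAP-ctrl range, the log2 difference of 0.13 had an interval of -0.13 to 0.39 (limma-trend adjusted p = 0.719), and it was 0.085 without FAP-no cilia 1, 0.089 without FAP-no cilia 2 and 0.21 without FAP-no cilia 3. Kif7 (ENSMUSG00000050382, chromosome 7, 79698098 to 79715720), the ciliary kinesin that both restrains and enables Gli activation, stood at 107, 95.4, 97.8, 102 and 119 in FAP-ctrl against 88.3, 80.6 and 109 in FAP-no cilia. The lower 2 of the FAP-no cilia values were under the FAP-ctrl range; the log2 difference was -0.17, with an interval of -0.55 to 0.20 (limma-trend adjusted p = 0.740), and it was -0.080 without FAP-no cilia 2 and -0.30 without FAP-no cilia 3. Only 45 to 176 reads per library lay behind it. Kif7 shares 877 exonic bases with the opposite-strand transcript 9330171B17Rik, at a mean of 2.92 normalized reads, and 51 with Ticrr, at a mean of 393. As the strand setting of the counting is not given, reads from these overlaps cannot be told apart.

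Smo, Evc and Evc2 stand on the activating side. Smo (ENSMUSG00000001761, chromosome 6, 29735503 to 29761365), the seven-pass transmembrane protein that Ptch1 inhibits, stood at 2408, 2516, 2060, 2441 and 2572 normalized reads in FAP-ctrl against 2370, 2652 and 2399 in FAP-no cilia. In all, 2 of the 3 FAP-no cilia libraries were inside the FAP-ctrl range and FAP-no cilia 2 was just above it. The log2 difference was 0.047, with an interval of -0.15 to 0.24 (limma-trend adjusted p = 0.888), and it was -0.0074 without FAP-ctrl 3 and -0.0046 without FAP-no cilia 2.

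Evc and Evc2 encode partner proteins of the EvC zone at the base of the cilium, where both are needed for Smo to act on Gli proteins. The genes lie head to head on chromosome 5: Evc (ENSMUSG00000029122, 37289098 to 37336894) on the minus strand and Evc2 (ENSMUSG00000050248, 37338499 to 37425055) on the plus strand, with 1605 bases between their annotated starts. Their promoters are shown because the genes are neighbours read outward from 1 short region. Their differences between the groups had opposite signs, and neither passed the limma-trend threshold. The lines give the 250 bases before each RefSeq start (build GRCm38.p6), 5′ to 3′ on the strand of the gene, for Evc at chr5:37336882-37337131 (minus) and for Evc2 at chr5:37338228-37338477 (plus). Capitals mark the longest run of bases that the pair shares, 13 bases, which lies in opposite orientation in the 2 genes.
Evc: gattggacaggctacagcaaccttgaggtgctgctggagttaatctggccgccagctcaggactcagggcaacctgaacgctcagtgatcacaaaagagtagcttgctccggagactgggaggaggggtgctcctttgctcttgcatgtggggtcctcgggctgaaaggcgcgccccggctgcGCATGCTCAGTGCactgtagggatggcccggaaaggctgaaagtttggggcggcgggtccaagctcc
Evc2: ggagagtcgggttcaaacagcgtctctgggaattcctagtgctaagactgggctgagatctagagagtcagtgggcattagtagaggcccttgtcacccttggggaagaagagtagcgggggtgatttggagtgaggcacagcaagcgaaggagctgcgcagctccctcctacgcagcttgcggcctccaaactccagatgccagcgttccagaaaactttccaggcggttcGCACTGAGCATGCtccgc
The run begins 67 bases before the Evc start and 18 bases before the Evc2 start. It was found, on either strand, in 10 of the 32851 RefSeq promoter windows of mouse genes (0.0304%, windows of 250 bases before to 50 after a start), 1 each for Evc and Evc2 and none for the other 8 genes. The Gli consensus GACCACCCA, searched on both strands, was in 0.253% of all windows and in 0 of the 11 windows of the 10 genes. As the run was chosen for being shared by Evc and Evc2, its presence in both follows from that choice. These matches describe letters only and say nothing of binding.

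Evc stood at 1050, 1064, 901, 1020 and 1100 normalized reads in FAP-ctrl against 862, 932 and 912 in FAP-no cilia. All 3 FAP-no cilia libraries were under 4 of the 5 FAP-ctrl libraries, and FAP-ctrl 3 lay among them. Its log2 difference was -0.18, with an interval of -0.38 to 0.0078 (limma-trend adjusted p = 0.476). Evc2 stood at 760, 894, 656, 777 and 820 in FAP-ctrl against 889, 815 and 845 in FAP-no cilia, inside the FAP-ctrl range in 3 of 3 libraries. Its log2 difference was 0.13, with an interval of -0.11 to 0.36 (limma-trend adjusted p = 0.696), and it was 0.043 within males and 0.066 without FAP-ctrl 3.

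As a ratio within each library, Evc2 to Evc was 0.724, 0.840, 0.728, 0.762 and 0.746 in FAP-ctrl against 1.03, 0.875 and 0.926 in FAP-no cilia. It was higher in each of the 3 FAP-no cilia libraries than in any FAP-ctrl library, with means of 0.944 ± 0.0802 (SD, n = 3) and 0.760 ± 0.0472 (SD, n = 5). Its log2 difference of 0.31 had the smallest p the exact two-sided permutation test can give (p = 0.0357), and p = 0.143 after adjustment over the 4 ratios, so it did not pass. The ratios were chosen with earlier results of these data known, which that adjustment does not cover. Counting error leaves some of these libraries unresolved: Evc2 took 45.6% of the reads of the pair in FAP-ctrl 2 (Wilson 95% interval 43.4 to 47.9%) and 46.7% in FAP-no cilia 2 (43.6 to 49.8%). The highest share was 50.8% (48.2 to 53.4%) in FAP-no cilia 1 and the lowest 42.0% (40.2 to 43.8%) in FAP-ctrl 1. Within males the difference was 0.27, where 2 against 3 libraries cannot give a p below 0.200. With any 1 library left out it lay between 0.25 and 0.37. Per kb of exon the pair was at parity in FAP-ctrl, with a ratio of 1.0 ± 0.0623, and at 1.25 ± 0.106 in FAP-no cilia (SD).

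Stk36 (ENSMUSG00000033276, chromosome 1, 74601445 to 74636894) encodes the Fused-like kinase, which in mammals is known for building the central pair of motile cilia and is dispensable for much of Hedgehog signalling. It stood at 154, 198, 150, 161 and 211 normalized reads in FAP-ctrl against 129, 145 and 111 in FAP-no cilia. All 3 FAP-no cilia libraries were below every FAP-ctrl library, by a narrow margin between FAP-no cilia 2 at 145 and FAP-ctrl 3 at 150. It was the 1 gene of the 10 without overlap of the groups, against 7.31% of all genes tested; 0 of the 10 were higher and 1 was lower without overlap, against 3.62% and 3.69%. The means were 175 ± 28.0 (SD, n = 5) and 128 ± 17.0 (SD, n = 3), and the log2 difference was -0.44 with an interval of -0.81 to -0.063 (limma-trend adjusted p = 0.403; DESeq2 adjusted p = 0.314). By p it ranked 967th of the 14768 genes. The difference was -0.45 within males, where the FAP-ctrl libraries stood at 154 and 198, and lay between -0.53 and -0.34 with any 1 library left out. The gene was counted with 81 to 253 reads per library.

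The sums of the muscle fibre markers did not overlap between the groups. The 7 markers summed to 125 to 195 normalized reads in FAP-ctrl against 40.4 to 120 in FAP-no cilia. By library, the fibre sums were 195, 125, 195, 139 and 162 in FAP-ctrl 1 to 5 against 40.4, 66.3 and 120 in FAP-no cilia 1 to 3. Of these markers 3 were tested, 0 passed and 0 were higher in FAP-no cilia, with Myh1 at 0 in 6 libraries and Ckm and Myh4 in 3 each. The 7 satellite cell markers summed to 207 to 324 and 126 to 248, with Pax7 and Myf5 at 0 in 3 libraries. The satellite cell sums overlapped between the groups, as did those of tenocyte, pericyte, Schwann cell, adipocyte and erythroid markers. All 8 macrophage markers and all 5 tested tenocyte markers had a difference above 0, with 0 called. The 8 macrophage markers summed to 475 to 1971 in FAP-ctrl against 1019 to 3461 in FAP-no cilia, with none at 0, and the 8 endothelial markers to 580 to 948 and 648 to 1515, with Cldn5 at 0 in 5 libraries. The part of these cells in the values of Stk36 or of the other 9 genes was not tested, and in such bulk samples fewer cells of a type cannot be told apart from less RNA per cell.

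**Figure D3:**
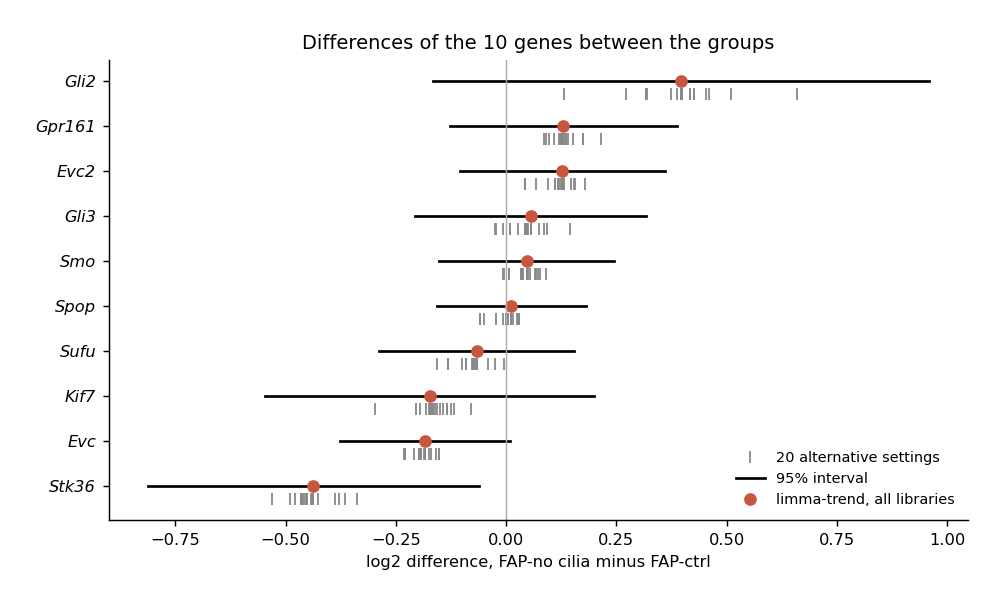
Log2 differences (horizontal axis, FAP-no cilia minus FAP-ctrl) of the 10 genes, with the limma-trend estimate (red), its 95% interval (black) and the estimates under 20 alternative settings (grey ticks). Stk36 at -0.44 is the only gene whose interval leaves out 0, and Gli2 at 0.40 has the widest interval, from -0.17 to 0.96.

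Spop (ENSMUSG00000057522, chromosome 11, 95414080 to 95493406), the substrate adaptor of a Cul3 ubiquitin ligase, was even over the libraries, with coefficients of variation of 6.29% in FAP-ctrl against 2.45% in FAP-no cilia. It stood at 3693, 3699, 3642, 3410 and 3191 normalized reads in FAP-ctrl against 3644, 3532 and 3473 in FAP-no cilia, all 3 inside the FAP-ctrl range. The log2 difference was 0.011, with an interval of -0.16 to 0.18 (limma-trend adjusted p = 0.973), and its sign turned in 7 of 20 alternative settings. Males only and sex as a covariate, both among the 7, give the same estimate because FAP-no cilia is all male. Within males Spop did not overlap, at 3693 and 3699 against 3473 to 3644, and neither did Evc and Stk36; all 3 were lower in FAP-no cilia, against 12.8% of all genes that were lower without overlap among these 5 libraries and 26.2% in either direction.

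Per kb of union exon length the 10 genes spanned a wide range of levels, and their order was similar in both groups. In FAP-ctrl, Spop was the highest at 1116 ± 70.2 normalized reads per kb, followed by Smo at 427 ± 35.6 and Gli3 at 344 ± 41.9, whose ranges overlapped. Evc2 at 134 ± 14.9 and Evc at 133 ± 9.89 overlapped each other. Sufu followed at 101 ± 7.23, with a range that lay below that of Evc (112.7 against 117 at the nearest) and just reached that of Evc2 (112.4). The lowest were Gpr161 at 31.6 ± 1.07, Stk36 at 27.2 ± 4.35, Kif7 at 22.8 ± 2.09 and Gli2 at 19.6 ± 3.87 (SD, n = 5), each overlapping its neighbour in that order. In FAP-no cilia the first 7 places were the same, Smo and Gli3 did not overlap, nor did Evc2 (146 ± 6.36) and Evc (117 ± 4.72), and Stk36 was last at 19.9 ± 2.64, overlapping Kif7 at 20.3 ± 3.26, which in turn overlapped Gli2 at 26.5 ± 9.63 (SD, n = 3). The exon lengths come from a later annotation than the one counted, so levels between genes are approximate.

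**Figure D4:**
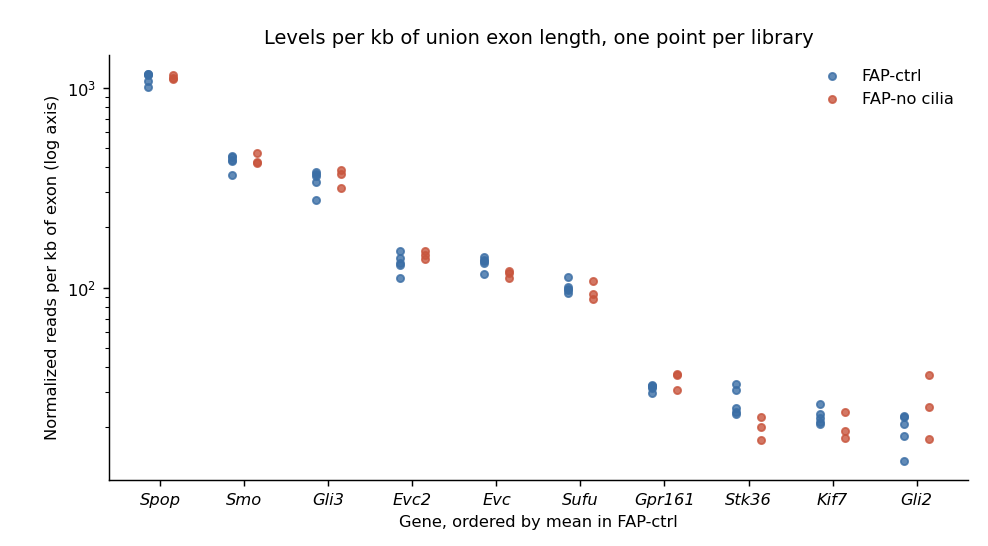
Normalized reads per kb of union exon length (vertical axis, log scale) of the 10 genes, ordered by their mean in FAP-ctrl, with 1 point per library in FAP-ctrl (blue) and FAP-no cilia (red). Spop is the highest at about 1116 and Gli2 the lowest at 19.6 in FAP-ctrl.

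No pair of members tested passed for a correlation over the 8 libraries. For log2 values of Gli2 and Gli3, Pearson's r was 0.197 (exact permutation p = 0.609) and Spearman's rho 0.333 (exact permutation p = 0.428). For Gli3 and Sufu r was 0.109 (exact permutation p = 0.808) and rho -0.119 (exact permutation p = 0.793), and for Evc and Evc2 r was 0.0885 (exact permutation p = 0.856) and rho 0.0952 (exact permutation p = 0.840). Adjusted over the 3 pairs, the permutation p was 0.856 for each r and 0.840 for each rho. Without the 2 libraries farthest from the median of the first gene, r was 0.279, -0.834 and 0.402 in the same order. The sign of r for Gli3 and Sufu thus rested on FAP-ctrl 5 and FAP-no cilia 3 (exact permutation p = 0.0417 without them, adjusted p = 0.125), while rho was already below 0 over all 8 libraries. For deviations from the group means r was 0.132, 0.169 and 0.695, the last for Evc and Evc2 (exact permutation p = 0.0730, adjusted p = 0.219). Neither sex holds 6 libraries, so r within a sex was not computed.

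The rest of the pathway, read from lists of 68 other genes, was called in 0 cases by limma-trend, 0 in each direction, and 62 of the 68 passed the filter on low values. Their median log2 difference was -0.0030, with 30 above 0 and 32 below, and at an unadjusted p under 0.05 there were 4 higher and 1 lower against 4.68% and 6.09% of all genes. The 4 readout genes, which report pathway output and partly sit in the receptor list too, had a median of 0.52. Ptch1, the receptor, stood at 386, 442, 413, 427 and 319 normalized reads in FAP-ctrl against 586, 586 and 604 in FAP-no cilia, the highest 3 of the 8 libraries (log2 difference 0.58 ± 0.12 SE, limma-trend adjusted p = 0.163; DESeq2 adjusted p = 0.00471). Gli1, the Gli factor that is itself a target, stood at 51.2, 39.6, 22.4, 36.4 and 46.5 and at 78.2, 91.4 and 63.1, likewise without overlap (log2 difference 1.0 ± 0.29 SE, limma-trend adjusted p = 0.261, DESeq2 adjusted p = 0.0944). Of all genes tested, 3.62% were higher in FAP-no cilia without overlap. Within males the log2 differences were 0.52 for Ptch1 (limma-trend adjusted p = 0.456) and 0.75 for Gli1 (limma-trend adjusted p = 0.638). Per kb, Gli1 stayed below Gli2 in means, with Gli1 at 7.85 and Gli2 at 19.6 normalized reads per kb in FAP-ctrl, and Gli1 at 15.5 and Gli2 at 26.5 in FAP-no cilia.

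Of the ligands and their release factors, 3 of 8 passed the filter on low values; Shh, at 0 in 6 of 8 libraries, Ihh, Dhh and Scube1 were below it, and Disp1 is listed at 0 in all 8. The 7 tested receptors and co-receptors had a median of -0.058, with 3 above 0 and 4 below, and both partners of the EvC complex, Efcab7 and Iqce, were tested with 1 above 0 and 1 below. Among 21 kinases and G protein genes, which set the phosphorylation of Gli proteins, 11 were above 0 and 10 below, with a median of 0.061. The 12 turnover genes, which include the ligase partners of Spop, had a median of 0.017, and 16 ciliary traffic genes a median of -0.058, with 11 below 0. The genes with the smallest p after Ptch1 and Gli1 were Hhip, a decoy receptor, at 0.45 ± 0.19, and Smurf1, a ubiquitin ligase, at 0.17 ± 0.08 above FAP-ctrl. In the other direction they were Gnas, the stimulatory G protein that Gpr161 couples to, at -0.78 ± 0.25, Gsk3a, a kinase of Gli proteins, at -0.19 ± 0.11, Btrc, the adaptor that marks Gli3 for cutting, at -0.15 ± 0.09, and Prkacb, a catalytic subunit of protein kinase A, at -0.13 ± 0.09 (log2 difference, SE). Their limma-trend adjusted p-values lay between 0.310 and 0.631. The Gnas locus holds overlapping transcripts on both strands, so its values of 134 to 221 in FAP-ctrl against 69.4 to 137 in FAP-no cilia are uncertain.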

How the data were processed

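Per the labels' protocols and the series design text, stranded libraries of total RNA gave single-end reads of 50 bases, which the authors aligned with STAR to GRCm38 and whose counts they normalized with DESeq over all samples. The deposited signal per gene is thus a count scaled by the size factor of its library. The counting tool, its strand setting and the annotation release are not given in the sources used. Dividing by the value of 1 read gave whole numbers throughout (100% within 0.01 reads), so reads were recovered. They summed to 15.3 M to 43.9 M per library, and 1 read was worth 0.610 to 1.79 normalized reads. Symbols were matched by identifier for 32919 of 37991 genes, and positions and exon lengths come from GENCODE M21. Promoters are RefSeq's (GRCm38.p6), and all 10 genes matched.

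The normalized values, log2(value + 1), were compared by limma-trend (limma 3.58.1, R 4.3.3) with genotype as the only term, on genes at 10 or more in 3 or more libraries. edgeR 4.0.16 quasi-likelihood, DESeq2 1.42.0 and limma-voom on recovered reads, other pseudocounts (0.1, 5) and filters (none, mean of at least 50), a replicate block, males only, sex as a covariate (chosen after seeing the data) and leaving out each library were alternatives. Ratios were tested by exact two-sided permutation over libraries with Python 3.11.15 and numpy 2.4.6. The pipeline was tested on simulated counts. The 10 genes, the lists and the tests were chosen with earlier results of these data known. Named genes were the 10, Ift88, Gli1, Ptch1, overlapping genes, and the 4 other pathway genes of smallest p in each direction. Within a group no library copied another: the chi-square per degree of freedom between its replicates was 19.7 to 105.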

Additional observations from a re-analysis of the deposited data

Results flagged for a closer look

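In FAP-ctrl, Gnas was at 221.5 normalized reads in replicate 5 and at 134 to 153 in the other 4, a gap of 0.781 of the group's range, over the 95% limit of 0.71 of Dixon's test. It was the only one of 23 sets of 5 FAP-ctrl values so tested to pass, and chance flags about 1 in 20. No value or ratio of the 10 Gli and cilium genes passed that limit.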

How the results depend on the processing

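The count of 0 called members was the same in all 20 alternatives, and the log2 differences of Gli2, Sufu, Kif7, Gpr161, Stk36, Evc and Evc2 kept their sign in all 20. The median difference of the 10 genes lay between -0.038 and 0.047. Spop turned with edgeR and TMM factors (-0.00086), with the replicate block (-0.051) and in males only or with sex as a covariate (-0.058 in both). As FAP-no cilia is all male, males only and sex as a covariate give the same log2 difference for each gene. They are not independent alternatives. Gli3 turned with the replicate block (-0.024). Leaving out each library gave -0.024 to 0.15 for Gli3, -0.0074 to 0.077 for Smo, -0.024 to 0.029 for Spop and -0.0028 to 0.19 for the ratio of Gli3 to Sufu; the cause was not tested. The correlation of Gli3 and Sufu was -0.834 without 2 libraries. Ift88 passed with DESeq2 (-1.11, adjusted p = 6.6e-06) and lay between -1.37 and -1.01 with a library left out, passing without FAP-no cilia 3 (-1.37, adjusted p = 0.0214). In males only Ift88 was at -0.98 and did not pass (limma-trend adjusted p = 0.394). DESeq2 called 1 other pathway gene, Ptch1. Same-numbered libraries deviated together by r = -0.0704, 0.135 and 0.0358, and not each correlated best with its own number, so the numbers were not taken as pairs. The replicate block changed no call, and gave 0.53, 0.61, 0.076 and 0.31 for Gli2 to Gli3, Gli2 to Sufu, Gli3 to Sufu and Evc2 to Evc, where 3 pairs cannot give a p below 0.250. With 1 library left out the ratio test cannot give a p below 0.0571. Kif7, Gli2 and Stk36 had the fewest reads. The spread of Kif7 in FAP-ctrl (9.17%) was that of counting (9.18%), while those of Gli2 (19.7%) and Stk36 (16.0%) were above it (8.19% and 7.09%).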
